A study of Mus musculus with 2 samples.

Results

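Pvalb, Calb1 and Calb2 encode parvalbumin, calbindin-D28k and calretinin, the calcium-binding proteins by which classes of cortical interneurons are usually told apart. The genes were taken by name, 3 of 21938 protein-coding genes of the annotation. Each locus was the annotated gene with 10 kb on either side, and every annotated start site with 500 bp on either side counted as a promoter. DNase-seq libraries of left cerebral cortex mapped its accessible chromatin. The mice were B6CASTF1/J females, first-generation offspring of a cross between the C57BL/6J and CAST/EiJ strains, at an age of 2 months and no treatment is given. There is 1 group of 2 libraries, biological replicates 1 and 2, from females with separate numbers that share a donor entry. Nothing states whether they were dissected or processed on separate days, so the spread given here, as SD over n = 2, may be partly technical. With 1 group there was no contrast to test, and no p-value is given for any difference.

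All 3 proteins hold calcium through EF-hand motifs, helix-loop-helix folds that grip a calcium ion, and act mainly as buffers that shape calcium transients. In the cortex, parvalbumin marks fast-spiking basket and chandelier cells, calbindin marks many somatostatin-expressing interneurons and also some upper-layer pyramidal cells, and calretinin marks many bipolar interneurons that express vasoactive intestinal peptide. DNase I cuts DNA that is not packed in nucleosomes, so that promoters and enhancers in use appear as peaks of cuts, and a protein bound inside a peak can leave a footprint, a short stretch with few cuts. Interneurons are a minority of cortical cells. In such bulk tissue, a site open in few cells and a site open to a small extent in many cells cannot be told apart.

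The sequences that carry the results are shown first, on the strand of the gene, from the RefSeq GRCm38.p6 assembly (mm10). In the first 3, the promoter peaks, capitals mark bases inside a footprint of both libraries. The start site lies at base 144 for Pvalb (chr15:78204161-78204380, minus strand) and Calb1 (chr4:15881121-15881420, plus strand), and at base 171 for Calb2 (chr8:110168161-110168380, minus strand).
Pvalb promoter: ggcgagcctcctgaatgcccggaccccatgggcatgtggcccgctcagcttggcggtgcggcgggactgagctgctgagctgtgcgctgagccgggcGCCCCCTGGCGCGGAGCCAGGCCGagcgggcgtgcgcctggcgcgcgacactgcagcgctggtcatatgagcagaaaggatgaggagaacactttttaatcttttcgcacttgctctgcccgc
Calb1 promoter: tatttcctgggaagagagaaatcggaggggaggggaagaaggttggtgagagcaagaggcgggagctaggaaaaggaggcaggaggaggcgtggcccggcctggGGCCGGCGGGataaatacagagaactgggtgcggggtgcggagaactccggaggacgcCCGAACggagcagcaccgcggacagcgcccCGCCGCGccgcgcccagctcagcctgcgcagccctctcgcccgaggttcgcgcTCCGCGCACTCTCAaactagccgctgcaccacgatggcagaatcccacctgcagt
Calb2 promoter: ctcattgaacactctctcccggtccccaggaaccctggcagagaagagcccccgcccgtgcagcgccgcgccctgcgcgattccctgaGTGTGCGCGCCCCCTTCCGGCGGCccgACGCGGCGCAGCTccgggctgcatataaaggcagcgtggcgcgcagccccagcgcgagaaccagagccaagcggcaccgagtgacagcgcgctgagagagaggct
The strongest shared peaks more than 1 kb from any start site are chr15:78181767-78181977 (minus strand) for Pvalb, chr4:15882321-15882580 (plus strand) for Calb1 and chr8:110130621-110130780 (minus strand) for Calb2. A second Calb2 site, chr8:110145641-110145840 (minus strand), is added because its footprint spans a splice boundary. Capitals again mark footprint bases of both libraries, and a lone capital is a place where footprints of the libraries meet by 1 base.
Pvalb distal: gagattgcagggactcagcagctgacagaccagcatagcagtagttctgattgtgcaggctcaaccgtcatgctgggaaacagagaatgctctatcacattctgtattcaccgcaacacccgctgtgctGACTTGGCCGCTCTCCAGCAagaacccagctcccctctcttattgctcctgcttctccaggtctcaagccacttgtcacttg
Calb1 distal: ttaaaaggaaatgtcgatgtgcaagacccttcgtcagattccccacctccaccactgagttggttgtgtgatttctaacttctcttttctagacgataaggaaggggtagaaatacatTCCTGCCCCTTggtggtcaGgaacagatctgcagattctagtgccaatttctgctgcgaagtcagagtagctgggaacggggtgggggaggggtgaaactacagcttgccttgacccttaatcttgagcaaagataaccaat
Calb2 distal: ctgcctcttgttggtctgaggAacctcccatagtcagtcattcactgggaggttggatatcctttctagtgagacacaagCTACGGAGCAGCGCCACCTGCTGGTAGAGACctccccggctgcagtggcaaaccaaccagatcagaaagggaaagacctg
Calb2 second distal: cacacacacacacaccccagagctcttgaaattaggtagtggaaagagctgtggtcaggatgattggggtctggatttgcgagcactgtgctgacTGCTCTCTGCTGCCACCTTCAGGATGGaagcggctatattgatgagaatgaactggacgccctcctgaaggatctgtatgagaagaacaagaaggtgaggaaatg
The last sequence, chr15:78206351-78206650 (minus strand), surrounds the outermost annotated Pvalb start site, position 78206400, where no peak was called. Its capitals mark the letters of the MEF2 consensus.
Pvalb outermost start: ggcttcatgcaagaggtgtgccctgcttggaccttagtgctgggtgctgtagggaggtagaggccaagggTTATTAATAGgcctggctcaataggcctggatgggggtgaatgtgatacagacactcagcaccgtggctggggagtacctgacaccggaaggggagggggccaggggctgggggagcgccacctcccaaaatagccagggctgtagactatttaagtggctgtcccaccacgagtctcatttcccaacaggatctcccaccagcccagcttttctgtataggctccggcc

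Replicate 1 held 128323 peaks and replicate 2 held 119651 in the larger deposited list, which is used throughout. A peak was called shared where peaks of both libraries overlapped by at least 1 bp. The 3 loci together held 18 merged peaks, of which 11 (61.1%) were shared, 4 were called only in replicate 1 and 3 only in replicate 2. Over the whole genome 80522 of 154220 merged peaks (52.2%) were shared. No 31-base stretch of any of the 18 peaks occurs a second time on the assembled chromosomes, so reads from them can be placed uniquely there at that length. Unplaced scaffolds and the mitochondrial genome were not searched.

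All 3 genes had a shared promoter peak, which 64.3% of protein-coding genes also had, so the count alone does not set them apart. The signal of a peak is the deposited value, read here as the height of the cut density on a depth-normalized scale. Its unit is not defined in the sources used here. The promoter of Pvalb had a signal of 1.18 in replicate 1 and 0.989 in replicate 2 (mean 1.09 ± 0.136 SD, n = 2). The promoter of Calb1 had 1.60 and 1.87 (mean 1.74 ± 0.194). That of Calb2 had 1.39 and 1.74 (mean 1.57 ± 0.25). Pvalb was the lowest of the 3 in both libraries, and its values did not overlap those of Calb1 or Calb2, whereas the ranges of Calb1 and Calb2 overlapped and their means differed by less than the SD of either.

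All 3 promoters lay below the median of cortical promoters. Over the 14104 genes with a shared promoter peak the median signal was 2.94, with quartiles of 1.59 and 4.40. The mean promoter signal of Pvalb was 0.369 times this median, at a percentile of 15.8 among those genes. Calb1 stood at 0.590 times the median (percentile 27.8) and Calb2 at 0.533 times (percentile 24.6). Against all shared peaks, most of which are weaker than promoters, the same peaks ranked at percentiles of 63.8 for Pvalb, 78.7 for Calb1 and 75.9 for Calb2.

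**Figure D1:**
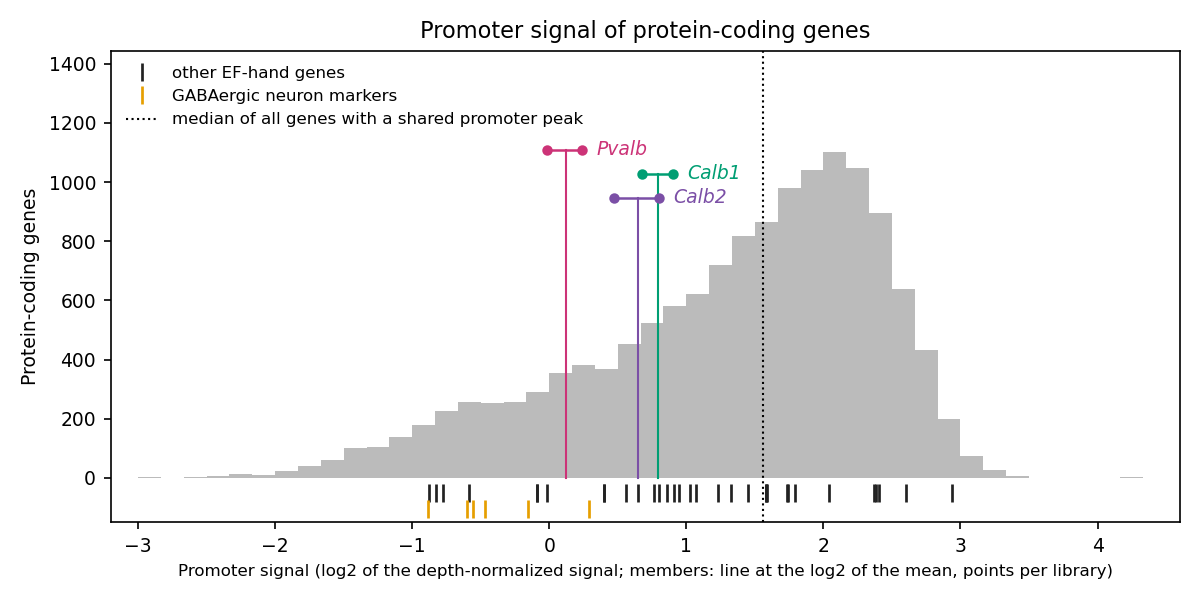
Histogram of the promoter signal (log2, mean of both libraries) of the 14104 protein-coding genes with a shared promoter peak. Coloured points are the 2 libraries of Pvalb, Calb1 and Calb2 and coloured lines their means, ticks below mark other EF-hand genes and GABAergic neuron markers, and all 3 members lie below the dotted median of 2.94, Pvalb furthest at 1.09.

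The cut-rate tables, which list a false discovery rate (FDR) for each stretch of DNA where the local density of cuts stands out, gave another order. The lowest FDR within 500 bp of the start site was 7.78e-21 in replicate 1 and 4.04e-25 in replicate 2 for Calb2. For Calb1 it was 4.81e-16 and 2.62e-18, and for Pvalb 7.16e-07 and 2.83e-06. Calb2 therefore had the lowest FDR at its start in both libraries although its signal was below that of Calb1 in both. Calb1 had the broadest, with 772 and 705 bp listed in the window of 500 bp on either side of its outermost start, against 498 and 449 bp for Calb2 and 364 and 292 bp for the internal start of Pvalb.

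**Figure D2:**
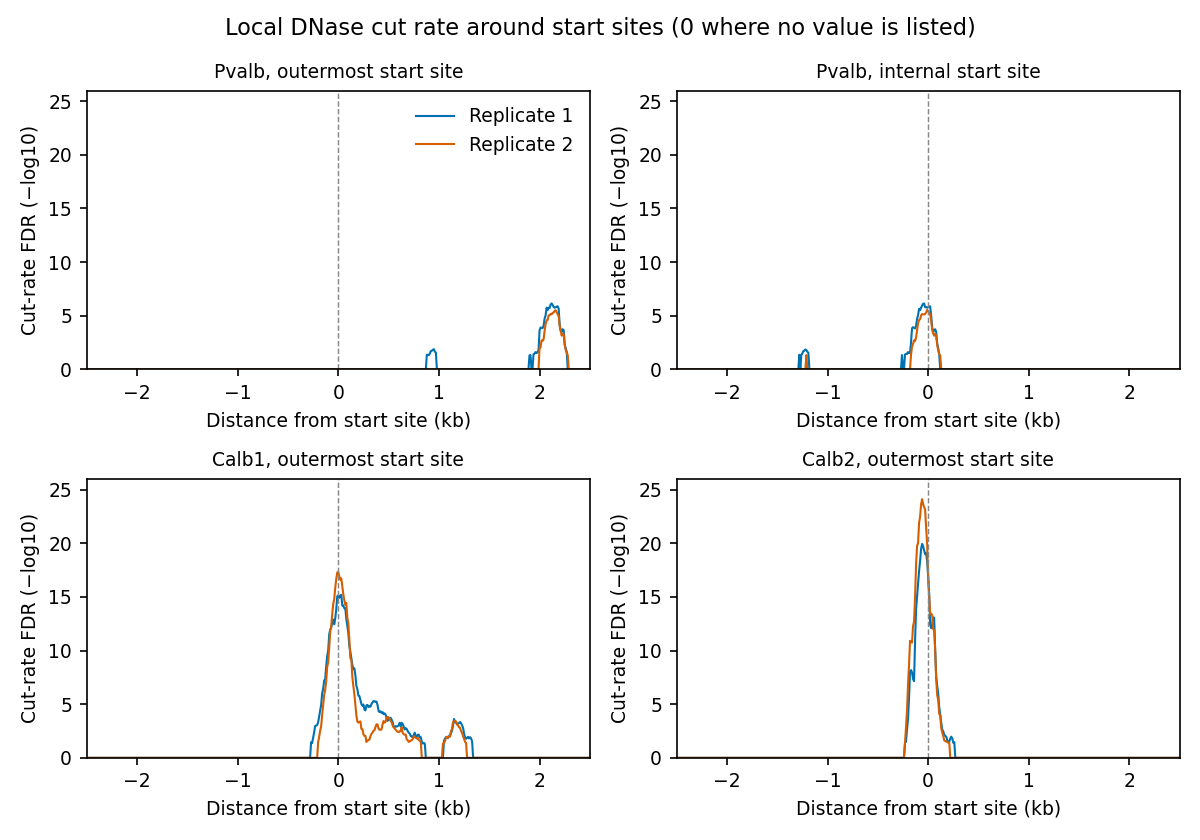
FDR of the local cut rate (−log10, 0 where none is listed) within 2.5 kb of the start sites of coding transcripts, against distance along the gene in kb, with a line per library. Within 500 bp of the outermost Pvalb start nothing is listed in either library, the internal one reaches 6.14 in replicate 1 and 5.55 in replicate 2, Calb1 is broad downstream of its start, and Calb2 reaches 20.1 and 24.4.

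Pvalb (ENSMUSG00000005716.16, chr15:78191114-78206400, minus strand) had a promoter peak at an internal start and none detected at its outermost one. Its peak lay at the start of transcript Pvalb-201 at position 78204237, in the first intron of Pvalb-202. At the start of Pvalb-202, position 78206400, neither library had a peak within 500 bp and 0 bp carried a listed cut rate. The nearest peaks were 878 bp away in replicate 1 and 2020 bp away in replicate 2. Of genes with a shared promoter peak, 1162 of 14104 (8.24%) had none at the outermost annotated end, and Pvalb was 1 of 3 members here. The 14104 were not limited to genes with 2 or more starts, and a gene with a single start cannot show the pattern. Among 17056 genes with 2 or more starts, 9145 had a shared peak at some but not all of them.

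Both Pvalb start sites are annotated as protein-coding, and they differ in base composition. The 1 kb around the internal start held 47 CpG dinucleotides with 60.3% G and C. The 1 kb around the outermost start held 12 CpG with 55.5% G and C. The median over all start sites is 28 CpG and 53.8%. Of the 17 motifs searched, the outermost start carries the letters of MEF2, a factor of muscle and neurons, 180 to 171 bases upstream. These letters are held by 3.19% of 32851 RefSeq promoter windows of the same length. A match to letters is a description and not a bound site. Fast skeletal muscle also uses Pvalb, and of its 6 marker genes only Mylpf, a fast myosin light chain, had a shared promoter peak here, at 2.99. Which Pvalb start is used in muscle was not tested.

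Of all 7 annotated start sites of the 3 genes, 5 had a shared peak, against 52.3% of start sites of protein-coding genes. These 5 are not separate peaks, since Calb1 has starts at 15881264 and 15881266 under a single peak and Calb2 likewise has a close pair. Besides Pvalb-202, the start without a peak belongs to Calb1-203, a retained-intron transcript starting inside Calb1 at position 15885457. It had 0 bp listed in either library, and 5 CpG and 34.8% G and C in its 1 kb. Calb1 (ENSMUSG00000028222.2, chr4:15881264-15908064, plus strand) had 46 CpG around its outermost start. Calb2 (ENSMUSG00000003657.9, chr8:110137502-110168210, minus strand) had 46 and 47 around starts that lie at 110168210 and 110168206, under the same peak.

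Away from promoters, each locus held at least 1 shared distal peak, as did 58.4% of protein-coding loci. Pvalb had 3, Calb1 had 1 and Calb2 had 4. Among the 8055 protein-coding loci of 30 to 60 kb, the class all 3 fall in, the median was 1 with quartiles of 0 and 2. Pvalb ranked at a percentile of 87.8 of this class, Calb1 at 54.7 and Calb2 at 93.9. The share of each locus with a listed cut rate differed less, at 2.58% and 2.45% for Pvalb, 3.04% and 2.84% for Calb1 and 4.20% and 3.39% for Calb2 in replicates 1 and 2. Medians over all protein-coding loci were 3.06% and 2.67%.

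**Figure D3:**
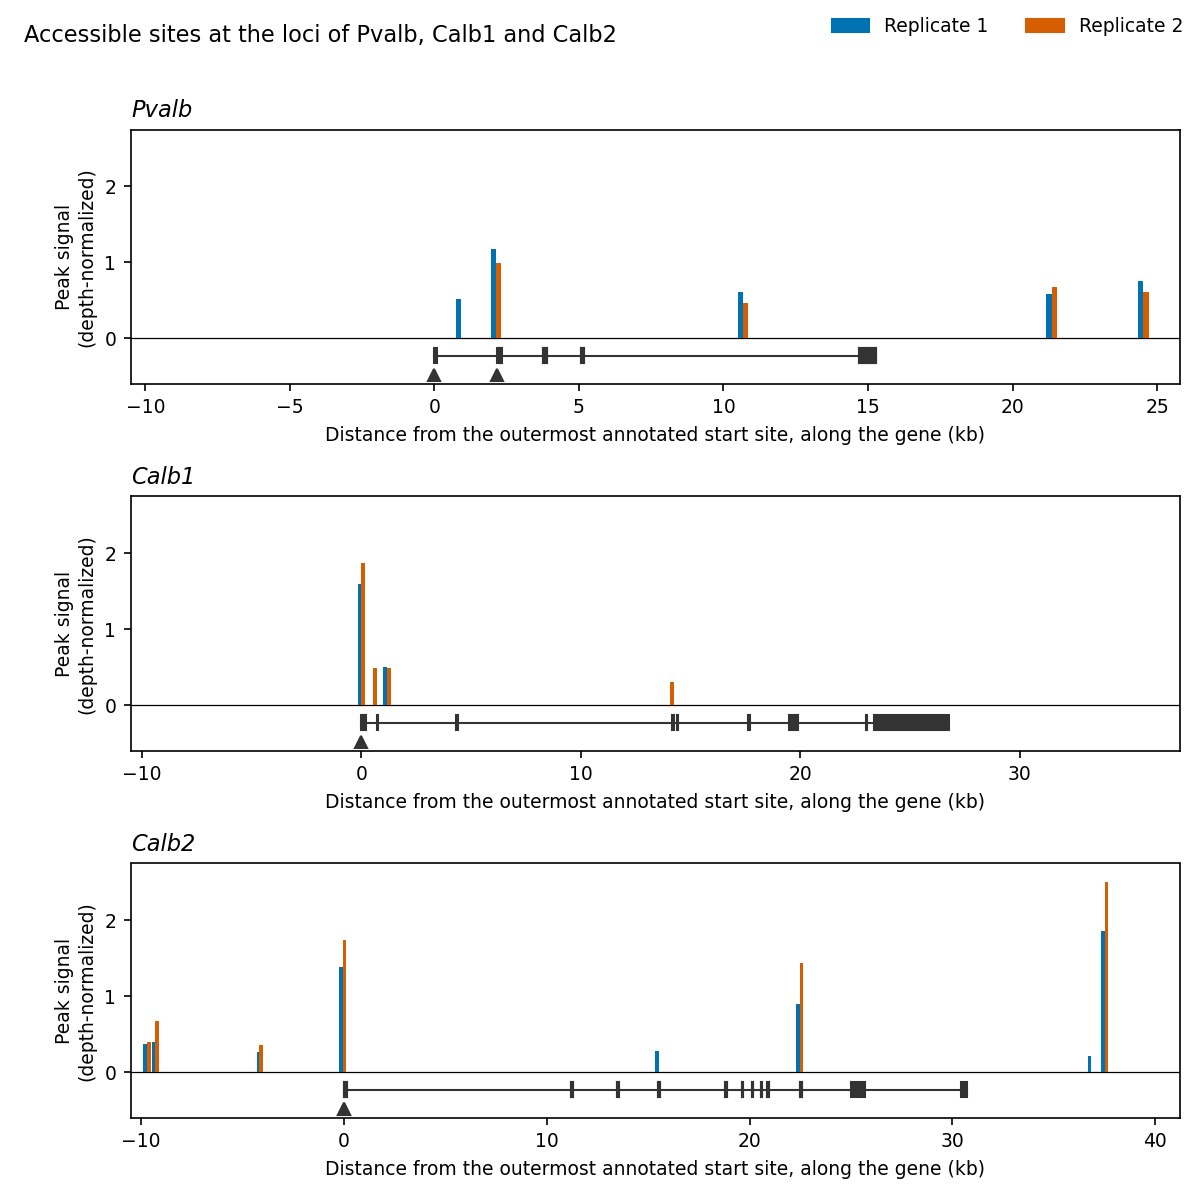
Signal of every peak (depth-normalized, linear axis, a bar per library) against distance in kb from the outermost coding start site along each gene. Boxes below are exons, triangles are start sites of coding transcripts, a lone bar is a peak called in 1 library (the adjoining bars about 4 kb upstream of Calb2 are separate peaks), and bar widths do not show peak widths. The highest bars of the Calb2 locus, 1.86 and 2.51, lie 6801 bp beyond its 3′ end and not at its promoter.

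The strongest site of the 3 loci was not a promoter. It lay 6801 bp downstream of the 3′ end of Calb2, outside any annotated gene, with a signal of 1.86 in replicate 1 and 2.51 in replicate 2 (mean 2.18 ± 0.461 SD, n = 2) and a lowest FDR of 1.41e-35 and 3.63e-36. It exceeded the promoter of Calb2, at 1.39 and 1.74, in both libraries. Read as cuts, the signals are 383 and 522, with exact Poisson intervals at 95% of 1.67 to 2.05 and 2.30 to 2.73 on the signal scale, while the promoter had intervals of 1.23 to 1.56 and 1.57 to 1.93. These intervals cover counting error only and hold if the smallest step of the signal is 1 cut. The site ranked at a percentile of 84.0 among shared peaks.

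This Calb2 site holds the letters of CTCF, the factor that anchors chromatin loops and boundaries, in bases 92 to 104 of the sequence shown. All 13 letters lie inside a footprint that was 31 bp wide in replicate 1 and 32 bp wide in replicate 2. An exact match to these letters is found in 3.28% of peaks cut to the same width. None of the other sequences shown holds an exact match. The nearest was the Calb1 distal site, with 1 mismatch, 8 of its 13 letters in a shared footprint, and 11.0% of windows as close. The promoters of Pvalb and Calb2 and the second distal site of Calb2 came within 2 mismatches, at a place mostly or wholly inside their shared footprints. Of windows of the same width, 25% came as close for the promoters and 23.9% for the second distal site. These shares count matches anywhere in the window, inside a footprint or not.

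The second distal site of Calb2 covered the whole of exon 10, 72 bp at chr8:110145652-110145723, and the end of intron 9. Its signal was 0.896 in replicate 1 and 1.45 in replicate 2 (mean 1.17 ± 0.388), with a lowest FDR of 5.32e-15 and 1.20e-17. Its footprint was 27 bp wide in replicate 1 and 31 bp in replicate 2 and crossed the splice acceptor, with 5 bp in the exon and 22 or 26 bp in the intron. The capitals in the sequence shown therefore hold the end of the intron, and no exact match to any of the 17 motifs searched.

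Replicate 2 was higher at this site by more than at most peaks. Over all shared peaks the median log2 ratio of replicate 2 to replicate 1 was 0.10, and after subtracting it this site stood at 0.59, a percentile of 95.7. A site 9301 bp upstream of Calb2 had a signal of 0.392 and 0.682 (mean 0.537 ± 0.205), a centred log2 ratio of 0.70 and a percentile of 97.5. What separates the animals at these sites was not tested.

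**Figure D4:**
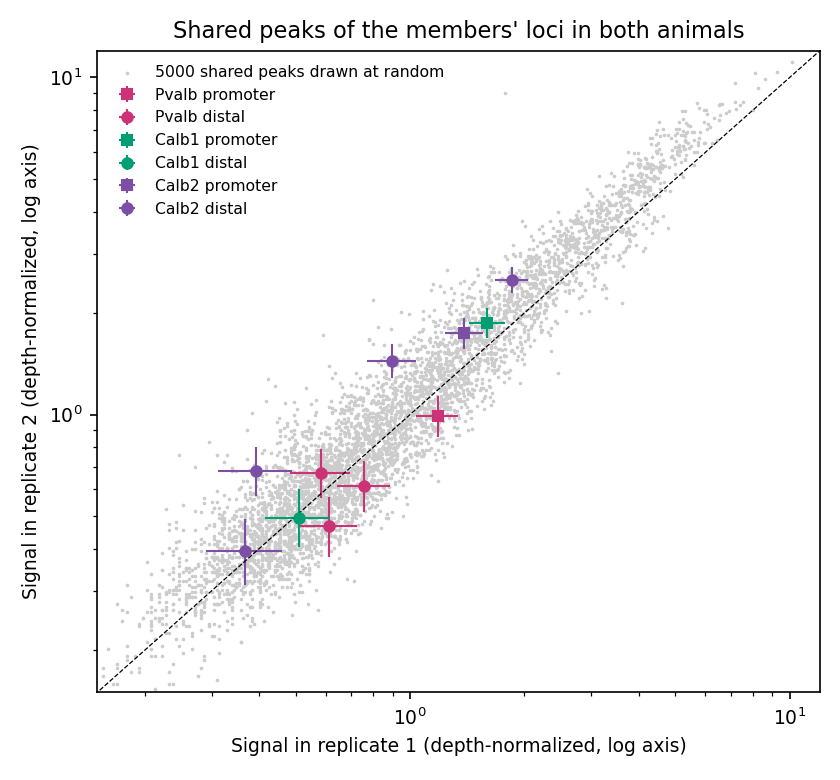
Signal in replicate 2 against signal in replicate 1, both on log axes, for the 11 shared peaks of the loci and for 5000 shared peaks drawn at random in grey. Bars are 95% exact Poisson intervals for counting error only, which leave out differences between animals and libraries, the dashed line is equality, and the Calb2 sites at 0.896 and 1.45 and at 0.392 and 0.682 lie at the upper edge of the cloud.

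The remaining shared sites of Calb2 were weak. A site 9713 bp upstream had 0.368 and 0.394 (mean 0.381 ± 0.0181). A pair of short peaks about 4 kb upstream did not overlap each other, one with 0.266 in replicate 1 and one with 0.355 in replicate 2. Peaks called only in replicate 1 lay downstream at 0.218 and over exon 4 at 0.276, and replicate 2 listed 0 bp under either.

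The distal sites of Pvalb lay downstream of the gene and in an intron, and all were near or below the median of shared peaks, 0.796. The strongest, 9242 bp beyond the 3′ end, had 0.756 and 0.615 (mean 0.685 ± 0.0997). Its shared footprint covered 20 bp, and its CAGCTG letters, an E-box found in 17.5% of windows of that width, lay outside it. A site 6063 bp beyond the 3′ end had 0.581 and 0.672 (mean 0.627 ± 0.0644), with an FDR of 0.0268 in replicate 1 and 8.72e-05 in replicate 2. A site in the last intron had 0.610 and 0.466 (mean 0.538 ± 0.102). A further peak 928 bp downstream of the outermost start was called only in replicate 1, at 0.523, and replicate 2 listed 5 bp there.

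At Calb1, shared peaks were called at and near the promoter alone. The promoter peak was followed by a stretch of 560 bp, centred in intron 1 and including 77 bp of exon 2. It was called as a peak only in replicate 2, at 0.485. Replicate 1 had no peak there but listed all 560 bp, with a lowest FDR of 3.93e-06, against 1.13e-04 in replicate 2. A peak in intron 2, 1185 bp from the start, had 0.509 and 0.495 (mean 0.502 ± 0.00989), the closest agreement of the 11 shared peaks on the linear scale. Past it, the rest of the locus held 1 peak, in intron 3, at 0.307 in replicate 2, with 0 bp listed in replicate 1. The locus reaches the 3′ end of Decr1, a mitochondrial enzyme of fatty acid oxidation whose own promoter had 0.935 and 0.888, and holds the small nucleolar RNA gene Gm26148, which had no promoter peak.

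Each library had 28 footprints in the 3 loci. A footprint of the other library was overlapped by 13 of replicate 1 (46.4%) and 15 of replicate 2 (53.6%), against 39.5% and 47.0% over the genome. Per locus, 3 of 9 footprints of replicate 1 and 3 of 7 of replicate 2 were shared at Pvalb, 5 of 8 and 6 of 8 at Calb1, and 5 of 11 and 6 of 13 at Calb2. The promoters differed in layout. Pvalb had 1 shared footprint, 29 bp wide in replicate 1 and 24 bp in replicate 2, centred 37 and 35 bases upstream of the internal start. Calb2 had a footprint of 43 bp in replicate 1, which replicate 2 split into stretches of 13 and 26 bp. Calb1 had 5 footprints in each library, of which 4 were shared, 1 upstream and 3 downstream of the start.

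**Figure D5:**
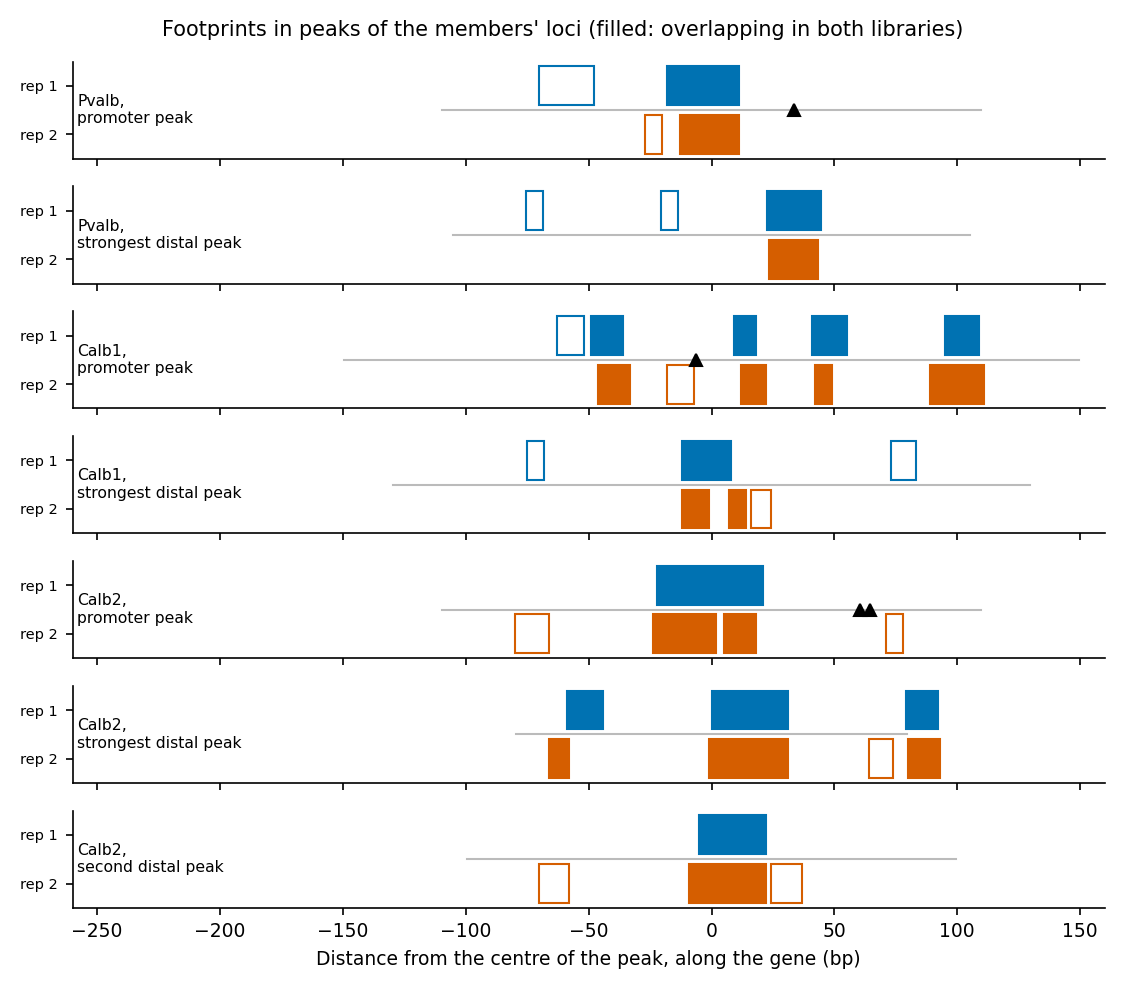
Footprints in the peaks whose sequences are shown, by distance in bp from the peak centre along the gene, replicate 1 above and replicate 2 below. Filled boxes overlap between libraries, open boxes do not, triangles are start sites. Calb1 has a row of 4 filled boxes at its promoter, while the filled boxes of Pvalb and Calb2 lie upstream of the start, with that of Calb2 split into 13 and 26 bp in replicate 2.

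Few of the searched letters were present at the promoters. Calb2 holds a TATA box, TATAAA, 32 to 27 bases upstream of its outermost start, which 6.56% of same-width windows hold, and GGGCGG, bound by SP and KLF factors, read on the reverse strand 119 to 114 bases upstream (15.2% of windows). Both lay outside the shared footprint. The promoter peaks of Pvalb and Calb1 held no exact match to any of the 17 motifs.

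Other EF-hand genes give the range of the family. Of 44, 33 (75%) had a shared promoter peak, against 64.3% of all protein-coding genes, and their median was 2.04. The highest were Calm3 at 7.66 ± 0.741 and Chp1 at 6.06 ± 0.891 (SD, n = 2). Calm3 encodes calmodulin and Chp1 a calcineurin-like protein, both used by most cells. The lowest were Kcnip1 at 0.545 ± 0.0103, a potassium channel subunit, Efhd1 at 0.565 ± 0.154, a mitochondrial protein, and Scgn at 0.586 ± 0.15, secretagogin, itself an interneuron marker. The 11 without one were Cabp2, Cabp4, Cabp7, Calml3, Calml4, Guca1a, Ocm, Rcvrn, S100a16, S100b and S100g. All 3 members lay between these extremes and below the family median.

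Marker genes were used to check the labelled tissue, beside the 64.3% of all protein-coding genes that had a shared promoter peak. Shared promoter peaks were present at 6 of 6 excitatory neuron markers (median signal 1.44), 6 of 8 GABAergic neuron markers (0.702), 4 of 5 astrocyte markers (1.71), 2 of 5 oligodendrocyte markers (1.41) and 0 of 4 microglia markers. Of markers of other tissues that use these proteins, 3 of 8 cerebellar genes (0.801), 1 of 6 fast muscle genes and 0 of 6 kidney and gut genes had one. The lists are short and several counts do not discriminate. The GABAergic share, 75%, was near that of all genes, and the oligodendrocyte share, 40%, was near the cerebellar 37.5%. Among the GABAergic markers, Sst and Vip had none, and the lowest mean of the other 6 was 0.543, at Lhx6, a transcription factor of interneurons born in the medial ganglionic eminence. Calb1 at 1.74 and Calb2 at 1.57 lay above all 6. The part that pyramidal cells have in the Calb1 signal was not tested.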

How the data were processed

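DNase-seq libraries of 2 females were analysed from the tables of calls the authors deposited, on mm10 per the file headers. Not given in the sources used here are the aligner and the callers. The authors deposited peaks per library, with a signal read here as normalized to depth. All values below 1000 steps are whole multiples of a step (tolerance 0.05 of a step), and higher values were not checked. As 1 cut per 1 M cuts, the step would mean 206 M cuts for replicate 1 and 208 M for replicate 2. The deposited footprint and cut-rate tables hold p-values adjusted as an FDR, 0.01 for every footprint and below 0.05 for every listed cut rate. Genes and start sites came from GENCODE M21 and sequence from RefSeq GRCm38.p6, the same build. Alleles of the 2 parental strains were not analysed, and CAST/EiJ reads may be lost more often in alignment to the C57BL/6J reference.

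Peaks were joined with Python 3.11.15, numpy 2.4.6 and scipy 1.17.1, figures drawn with matplotlib 3.10.9, and the overlap and motif code was checked on simulated data. A gene with several promoter peaks takes its strongest shared one. Motifs were searched as exact letters on both strands: the TATA box motif TATAAA, the motif of SP and KLF factors GGGCGG, the motif of AP-1 factors TGANTCA, the cyclic AMP element TGACGTCA, the neuronal E-box motif CAGATG, the other E-box motif CAGCTG, the motif of EGR factors GCGTGGGCG, the motif of ESRR receptors TCAAGGTCA, the nuclear receptor motif AGGTCA that also lies inside it, the homeodomain motif TAATTA, the motif of SOX factors AACAAT, the octamer motif ATGCAAAT, and the MEF2, NFI, CTCF, RFX and NRF1 consensus. Of the members, Pvalb had an entry among the RefSeq promoters used for comparison. Named genes were the members, genes overlapping their loci, and the 3 highest and 3 lowest EF-hand genes with the names of those without a promoter peak; a gene that this rule names is not reported here. The members and lists were chosen with earlier results of these data known. The second Calb2 distal sequence, the Pvalb sequence at its outermost start, the CTCF mismatch counts, and the marker genes given by name were chosen after their values were seen. Alternatives covered the peak list, overlap, promoter and locus windows, scaling and leaving out each replicate.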

Additional observations from a re-analysis of the deposited data

How the results depend on the processing

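For the promoter signals of Pvalb, Calb1 and Calb2, other windows, start sites or sums picked the same peak and returned the same value, so they say nothing of stability. Counting the outermost 5′ end only gave none for Pvalb, since no peak lies there. Scaling by the library median gave 1.09, 1.73 and 1.56. Leaving out a replicate, which with n = 2 stays within 1 SD by construction, gave 0.989 to 1.18 for Pvalb, 1.60 to 1.87 for Calb1 and 1.39 to 1.74 for Calb2. Of 64 alternative values in all, 39 stayed within the set limits and 25 moved, mostly by construction, since a wider window or 1 library alone holds more calls. Shared peaks at Pvalb, 4 as reported, were 2 in the smaller peak list, 2 in the gene body alone, 12 with 50 kb on either side and 4 to 5 without a replicate. At Calb1, 2 as reported, they were 1 among the upper 50% of peaks by signal, 5 with 50 kb and 2 to 4 without a replicate. At Calb2, 5 as reported, they were 3 among the upper 50%, 2 in the gene body alone, 9 with 50 kb and 6 to 8 without a replicate. Shared footprints were 7 to 9 without a replicate at Pvalb (3 as reported), 8 in either library alone at Calb1 (5 as reported), and 11 to 13 without a replicate and 1 in the gene body alone at Calb2 (5 as reported). The percent of genes with a shared promoter peak, 64.3, was 60.4 with the smaller list, 59.5 with an overlap of at least 50%, 59.96 with the upper 50% by signal, 65.6 with a window of 1 kb, 59.0 with the outermost end only, 62.9 with coding transcripts only and 65.9 to 66.2 without a replicate. In an alternative chosen after seeing the data, a peak of 1 library also counted as shared where the other library listed a cut rate over at least 50% of it, which gave 4 at Pvalb, 3 at Calb1 and 5 at Calb2. No paired analysis was possible because there is 1 group. Depth limits what was seen: a site without a peak was not detected at this depth, which does not show it closed in the few cells that may use it.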
